A study of Homo sapiens with 32 samples.

Results

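Transcript levels of 8 protein kinases of the AMPK-related family, *NUAK1*, *NUAK2*, *SIK1*, *SIK2*, *SIK3*, *SNRK*, *MARK4*, and *BRSK1*, were examined in LNCaP prostate cancer cells. They were the genes with these symbols among the 25498 genes of the deposited tables, and all 8 of 8 passed the filter on low counts that 16995 genes passed. The group was chosen by measured values of these libraries, the low *NUAK2* level after a growth factor set beside the behaviour of the SIK kinases. Which values were used is not stated further. The 1-hour and 4-hour growth factor libraries were taken as used, so differences that involve them are given for these genes as a description without a test. The 5-minute and full-serum comparisons were taken as not used, and the *P* values printed for the 8 genes rest on that assumption. Those against the untreated control share its libraries with the comparisons taken as used, so they are not fully independent of the choice. In this account *NUAK2* was much lower at 1 hour of either growth factor and only partly back at 4 hours, *SIK1* was higher at 1 hour, and *SIK2* and *SIK3* lay close to the untreated level.

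AMPK-related kinases share a catalytic domain with the energy sensor AMPK, and most are switched on when the tumor suppressor kinase LKB1 phosphorylates their activation loop. The salt-inducible kinases (SIKs) phosphorylate CRTC coactivators and class IIa histone deacetylases and so hold them in the cytoplasm, and cAMP signaling through protein kinase A relieves that hold. NUAK1 and NUAK2 bind and phosphorylate the myosin phosphatase subunit MYPT1, and NUAK2 is also known as a target gene of YAP that restrains LATS kinases in the Hippo pathway.

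LNCaP is an established prostate cancer line that was derived from a nodal metastasis. The 8 groups had 4 libraries each, made in 2 batches of 2 replicates, and polyadenylated RNA was sequenced with its strand. One group stayed in medium with fetal bovine serum (FBS), and the cells of the other 7 groups were kept in charcoal-stripped serum (CSS), which is depleted of steroid hormones. CSS cells were left untreated or given 100 ng/mL EGF, the ligand of EGFR, or 100 ng/mL NRG-1, the ligand of HER3 and HER4, for 5 minutes, 1 hour, or 4 hours. Untreated CSS was thus the control for both ligands, and it is shared by all comparisons against it. All cells were of 1 line, so the replicates sample no other line or donor.

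Rounded counts summed to between 63822649 and 92401717 per library (median 77866172.5). Luminal prostate markers were detected in every library, with a median TPM (transcript abundance scaled to a fixed library total) of 284 for *KLK3*. Their levels differed between groups. *KLK3* had a mean of 2442 TPM in FBS, 283 in CSS, and 172 and 180 at 4 hours of EGF and NRG-1. *KRT8* went the other way at 4 hours, from 526 TPM in CSS to 1559 with EGF and 1345 with NRG-1. Of 15 markers of basal, fibroblast, endothelial, and immune cells, 12 had a median below 1 TPM. *KRT5*, *TP63*, *COL1A2*, *PECAM1*, *CDH5*, and *CD3E* were among those with a median of 0. Above 1 TPM were the fibroblast marker *COL1A1* (median 2.815 TPM), *VWF* (1.91), and *CD68* (3.59). The summed level of the 15 was 9.42 to 11.52 TPM in CSS. It was 17.14 to 20.67 TPM after 4 hours of EGF and 10.55 to 16.13 TPM after 4 hours of NRG-1. *CD68*, a lysosomal gene used as a macrophage marker, went from a mean of 3.59 TPM in CSS to 13.9 and 8.83 TPM, whereas the endothelial marker *VWF* went from 2.16 to 0.932 and 1.02 TPM. The part of these markers in the 4-hour results was not tested. In bulk RNA, a lower level in all cells cannot be told apart from loss of the transcript in some of them.

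Libraries numbered batch 2 replicate 2 were often the lowest of their group for these kinases. This was so in 55 of 64 combinations of gene and group (85.9%), against 35.2% over all genes tested. Results are therefore also given without those 8 libraries where a call changed.

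Levels of different genes were compared on the TPM scale, which corrects for transcript length. Over the 32 libraries *SNRK* had the highest mean level at 15.8 TPM, followed by *SIK2* at 13.8, *SIK1* at 6.27, *MARK4* at 5.44, *SIK3* at 3.42, *NUAK2* at 3.15, *NUAK1* at 2.16, and *BRSK1* at 0.718. In untreated CSS the order was *SNRK* (20.0 ± 2.44 TPM, SD, n = 4), *SIK2* (14.8 ± 2.73), *SIK1* (6.00 ± 0.632), *MARK4* (5.84 ± 0.439), *NUAK2* (4.37 ± 0.837), *SIK3* (3.49 ± 0.528), *NUAK1* (2.13 ± 0.403), and *BRSK1* (0.808 ± 0.317). Neighbours whose libraries overlapped in CSS were *SNRK* and *SIK2*, *SIK1* and *MARK4*, and *NUAK2* and *SIK3*. After 1 hour of EGF, *NUAK2* lay at 0.698 ± 0.0629 TPM, and its libraries (0.64 to 0.77 TPM) overlapped with those of *BRSK1* in the same group (0.67 to 1.13 TPM). A read can be shared between genes in the authors' estimates, and *SNRK* had counts that were not whole numbers in 31 of 32 libraries, whereas the other 7 kinases had whole counts throughout.

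The sequences upstream of *NUAK2*, *SIK1*, and *SNRK* are shown because these 3 genes gave the clearest and most different time courses. Each is the 250 bases before the annotated start, from RefSeq on GRCh38.p14, written in the direction of transcription. All 8 kinases had such a sequence. They were searched on both strands for the cAMP response element half-site (TGACG), the full element (TGACGTCA, which holds the half-site on each strand), the AP-1 site (TGANTCA), the TEAD site used by YAP (GGAATG), and the E-box (CACGTG), a set picked with these sequences in view. Capitals mark the TEAD letters in *NUAK2* (chr1:205321746-205321995, minus strand) and the cAMP half-sites in *SIK1* (chr21:43427132-43427381, minus strand) and *SNRK* (chr3:43286290-43286539, plus strand).
NUAK2: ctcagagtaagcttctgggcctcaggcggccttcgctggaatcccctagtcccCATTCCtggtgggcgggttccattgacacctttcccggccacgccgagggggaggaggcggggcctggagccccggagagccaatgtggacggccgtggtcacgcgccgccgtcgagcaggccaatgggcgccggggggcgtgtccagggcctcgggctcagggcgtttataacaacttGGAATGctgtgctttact
SIK1: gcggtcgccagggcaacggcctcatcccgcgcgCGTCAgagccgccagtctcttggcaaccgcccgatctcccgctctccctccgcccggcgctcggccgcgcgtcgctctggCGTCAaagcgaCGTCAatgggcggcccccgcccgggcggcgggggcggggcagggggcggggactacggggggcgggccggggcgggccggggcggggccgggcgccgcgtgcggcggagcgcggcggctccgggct
SNRK: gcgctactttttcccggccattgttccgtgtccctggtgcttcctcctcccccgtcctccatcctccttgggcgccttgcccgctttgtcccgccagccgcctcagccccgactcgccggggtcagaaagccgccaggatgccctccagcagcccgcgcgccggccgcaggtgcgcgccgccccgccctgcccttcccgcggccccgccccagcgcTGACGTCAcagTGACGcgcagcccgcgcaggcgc

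The TEAD letters stood at 2 places before *NUAK2*, at bases -197 to -192 and -18 to -13 from the start, and in none of the other 7 kinases. They occurred in 11.9% of 27303 such windows, 1 for each gene. The half-site was found before *SIK1* (3 times), *SNRK* (3), *SIK2* (2), *SIK3* (2), and *MARK4* (1), that is in 5 of 8 kinases, and in 21.7% of all windows. The full element was found before *SNRK* only among the 8 (1.77% of all windows), and the E-box before *SIK3* only (6.49%). The AP-1 letters were in 0 of the 8 windows and in 6.6% of all. The 5 windows with the half-site held 74.4% (*SNRK*) to 82.4% (*SIK1*) G and C. Those without it held 79.6% (*NUAK1*), 66.4% (*NUAK2*), and 63.2% (*BRSK1*). The shares over all windows were not matched for this content. These matches describe the letters and do not show binding.

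Values below are CPM, counts scaled to a fixed library size after TMM normalization, and are compared between groups for 1 gene at a time. *NUAK2*, a kinase tied to Hippo signaling, had 8.77, 9.34, 8.17, and 6.68 CPM in untreated CSS. The order is batch 1 replicates 1 and 2, then batch 2 replicates 1 and 2. After 1 hour of EGF the same 4 positions read 1.21, 1.35, 1.34, and 1.24 CPM, from 86 to 110 counts per library. After 1 hour of NRG-1 they read 2.49, 2.47, 2.57, and 2.00 CPM. All 8 ligand libraries at 1 hour lay below every CSS library, and all EGF libraries lay below all NRG-1 libraries.

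At 4 hours *NUAK2* had 4.83, 4.70, 4.22, and 3.78 CPM with EGF. With NRG-1 it had 6.06, 5.07, 5.25, and 4.06 CPM. Both sets lay above every 1-hour library of the same ligand and below every CSS library, and the 2 ligands overlapped. At 5 minutes the level had been 10.8, 9.83, 9.61, and 6.83 CPM with EGF and 10.6, 10.4, 8.42, and 7.72 CPM with NRG-1, overlapping with CSS.

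**Figure D1:**
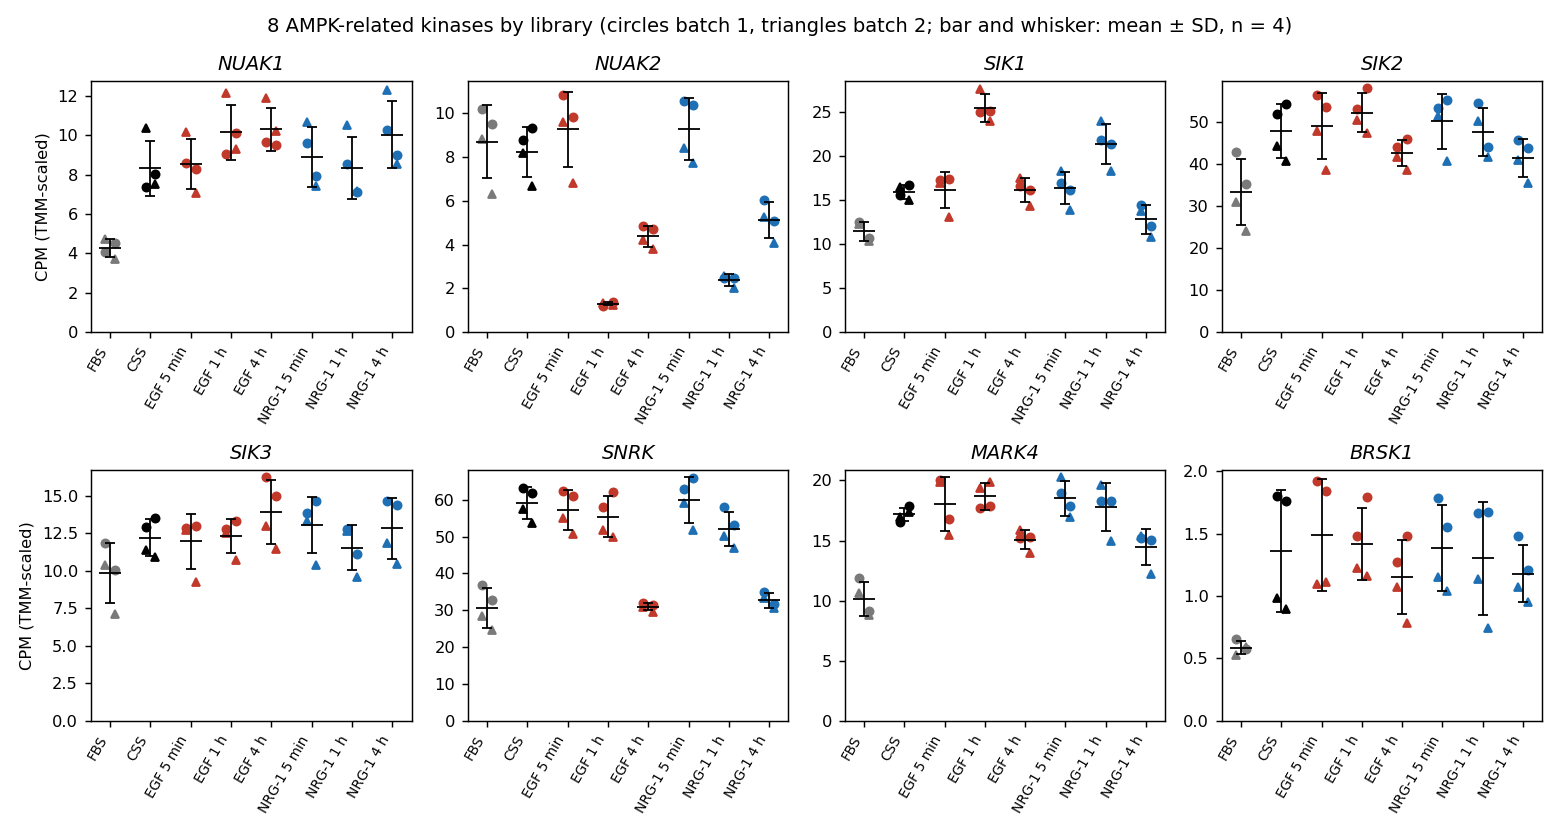
CPM (TMM-scaled, y axis) of the 8 kinases in each of 8 groups (x axis), 1 point per library, circles for batch 1 and triangles for batch 2, with bars and whiskers for the mean ± SD of 4 libraries. *NUAK2* dips to a mean of 1.29 CPM at 1 hour of EGF and 2.38 at 1 hour of NRG-1, *SIK1* peaks at 25.4 and 21.4, and *SNRK* stands near 31.0 and 32.7 at 4 hours.

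The fitted log2 difference of *NUAK2* from CSS was -2.67 (SE 0.12) at 1 hour of EGF, a 6.36-fold lower level, and -0.91 (SE 0.11) at 4 hours. With NRG-1 it was -1.78 (SE 0.12), a 3.44-fold lower level, and -0.69 (SE 0.11). At 1 hour of EGF it was -2.81 in batch 1 alone and -2.51 in batch 2 alone, and with NRG-1 -1.86 and -1.70. On the log2(TPM + 1) scale, which compresses low levels, these differences were -1.65 with EGF and -1.27 with NRG-1.

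*SIK1*, the family member whose own gene is induced by cAMP, moved the other way at 1 hour. Its CSS libraries held 15.6, 16.7, 16.5, and 15.0 CPM, in the order used above. After 1 hour it read 25.0, 25.2, 27.7, and 24.0 CPM with EGF and 21.8, 21.4, 24.0, and 18.4 CPM with NRG-1. All 8 were above every CSS library, and the lowest EGF library was at the level of the highest NRG-1 library.

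At 4 hours *SIK1* had 16.6, 16.1, 17.5, and 14.4 CPM with EGF, which overlapped with CSS. With NRG-1 it had 14.5, 12.1, 13.8, and 10.9 CPM, below every CSS library. The fitted log2 differences from CSS were 0.67 (SE 0.10) and 0.02 (SE 0.10) at 1 and 4 hours of EGF, and 0.42 (SE 0.10) and -0.32 (SE 0.10) with NRG-1. At 5 minutes *SIK1* lay between 13.1 and 17.3 CPM with EGF and between 13.9 and 18.4 CPM with NRG-1, around the CSS level.

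*SIK2* and *SIK3*, which share the CRTC and histone deacetylase substrates of SIK1, stayed nearer to CSS. *SIK2* had a mean of 47.8 ± 6.37 CPM in CSS and between 41.4 and 52.2 CPM as group means with either ligand at any time, and its libraries overlapped with CSS in all 6 ligand groups. *SIK3* had 12.2 ± 1.23 CPM in CSS and group means between 11.5 and 13.9 CPM, again with overlap in all 6. Their fitted log2 differences from CSS at 1 and 4 hours ran from -0.20 (SE 0.10, *SIK2* at 4 hours of NRG-1) to 0.19 (SE 0.11, *SIK3* at 4 hours of EGF). Within same-numbered pairs *SIK2* was lower than in CSS in 4 of 4 at 4 hours of either ligand, and *SIK3* was higher in 4 of 4 at 4 hours of EGF.

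**Figure D2:**
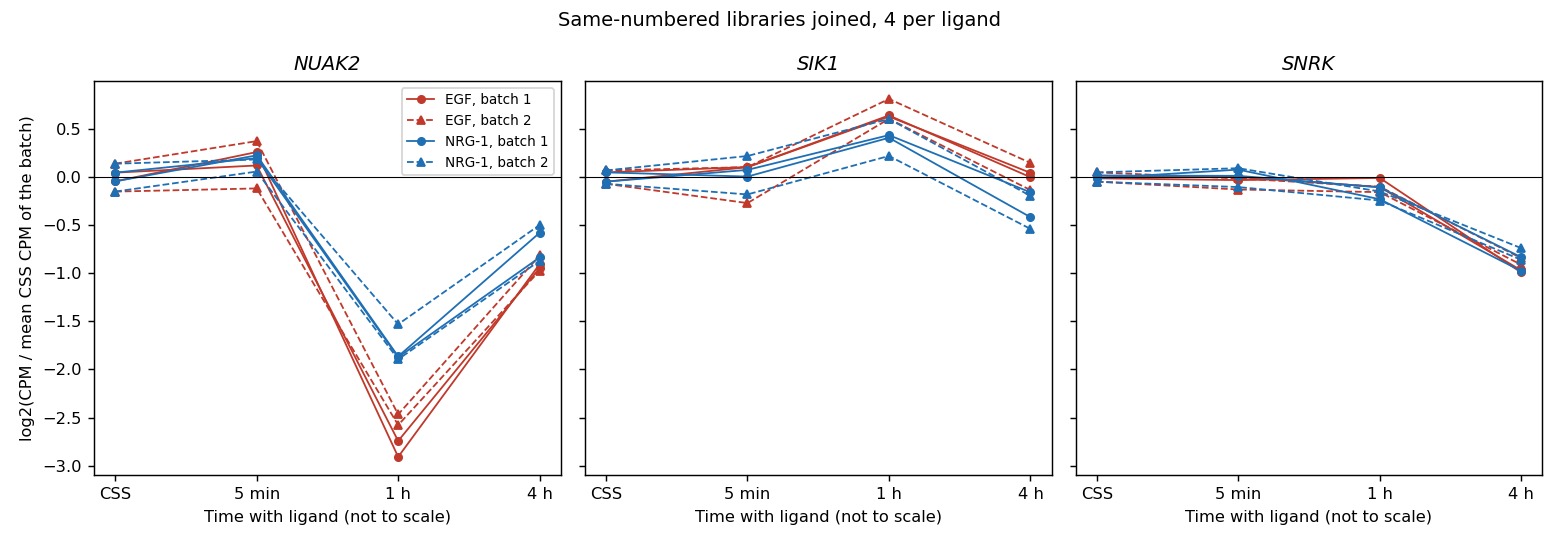
log2 of CPM over the mean CSS CPM of the same batch (y axis) for *NUAK2*, *SIK1*, and *SNRK* in CSS and at 5 minutes, 1 hour, and 4 hours of ligand (x axis, not to scale), 1 line per same-numbered set of libraries, EGF red, NRG-1 blue, batch 1 solid, and batch 2 dashed. All 8 *NUAK2* lines reach their lowest point at 1 hour, the *SIK1* lines their highest, and the *SNRK* lines their lowest at 4 hours.

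*SNRK*, the most abundant of the 8, was much lower at 4 hours than at 1 hour. Its CSS libraries held 63.1, 61.9, 57.4, and 53.7 CPM. At 4 hours it read 31.9, 31.4, 31.0, and 29.5 CPM with EGF and 35.1, 31.8, 33.3, and 30.6 CPM with NRG-1. Every 4-hour library was below every CSS library, with fitted log2 differences of -0.93 (SE 0.06) and -0.85 (SE 0.06). At 1 hour the range was 49.8 to 62.0 CPM with EGF and 46.9 to 58.0 CPM with NRG-1, and both overlapped with CSS. Pair by pair, *SNRK* at 1 hour of NRG-1 was nevertheless lower than in CSS in 4 of 4 same-numbered pairs, with a fitted log2 difference of -0.18 (SE 0.06).

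*NUAK1*, the paralog of *NUAK2*, did not share its low level at 1 hour. It had 8.33 ± 1.40 CPM in CSS, 10.2 ± 1.40 CPM at 1 hour of EGF, and 8.36 ± 1.59 CPM at 1 hour of NRG-1. The fitted log2 differences were 0.29 (SE 0.14) and 0.01 (SE 0.14), and both groups overlapped with CSS. At 4 hours it had 10.3 ± 1.10 CPM with EGF (0.31, SE 0.14) and 10.0 ± 1.70 CPM with NRG-1 (0.27, SE 0.14), higher than in CSS in 4 of 4 pairs with each ligand, where *NUAK2* was lower in 4 of 4. The *NUAK1* libraries still overlapped with CSS.

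*MARK4*, which phosphorylates microtubule-associated proteins such as tau, had 16.5 to 17.8 CPM in CSS. It read 14.0 to 15.9 CPM at 4 hours of EGF and 12.2 to 15.4 CPM at 4 hours of NRG-1, below the CSS range in both, with fitted log2 differences of -0.19 (SE 0.09) and -0.25 (SE 0.10). *BRSK1*, a kinase known from neuronal polarity, was the least abundant, with 35 to 178 counts per library. It had 0.899 to 1.80 CPM in CSS and overlapped with that range in all 6 ligand groups.

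Calls at an adjusted *P* below 0.05 were counted for these comparisons only to be read against the background. The choice of genes was taken to have used these comparisons. At 1 hour of EGF 1 kinase was called higher (*SIK1*, 6.00% of all genes tested were) and 1 lower (*NUAK2*, 3.51%), and with NRG-1 again 1 higher (*SIK1*, 4.45%) and 1 lower (*NUAK2*, 2.28%). At 4 hours of EGF 0 were called higher (24.6%) and 2 lower (*NUAK2* and *SNRK*, 24.6%). At 4 hours of NRG-1 0 were called higher (21.6%) and 4 lower (*NUAK2*, *SIK1*, *SNRK*, and *MARK4*, 21.0%). The 10 calls in all became 17 with a replicate block and 16 without the batch 2 replicate 2 libraries, and both sets held the 10. The block added *NUAK1* as higher at 1 and 4 hours of EGF and 4 hours of NRG-1. It also added *SIK3* as higher and *MARK4* as lower at 4 hours of EGF. *SNRK* was added as lower at 1 hour of NRG-1 and *SIK2* as lower at 4 hours of NRG-1. Setting the batch 2 replicate 2 libraries aside added *NUAK1* in the same comparisons as the block. It also added *SIK3* as higher at 4 hours of EGF (log2 difference 0.22). *SIK2* was then added as lower at 4 hours of EGF (-0.20) and of NRG-1 (-0.21).

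At 5 minutes, a time taken as not used in the choice, none of the 8 kinases passed the edgeR test. With EGF 0 of 8 were called in either direction, beside 0.00588% of all genes higher and 0% lower (251 of all genes had an unadjusted *P* below 0.05), and the unadjusted *P* was above 0.05 for all 8. With NRG-1 0 of 8 were called, beside 0% higher and 0% lower (324 with an unadjusted *P* below 0.05), again with no unadjusted *P* below 0.05 among the 8, and DESeq2 also called 0 of 8 with either ligand. The largest fitted log2 difference was 0.17 (SE 0.11) for *NUAK2* with both ligands. *NUAK2* was higher at 5 minutes than in CSS in 4 of 4 same-numbered pairs with each ligand, and the adjusted *P* was 1.

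**Figure D3:**
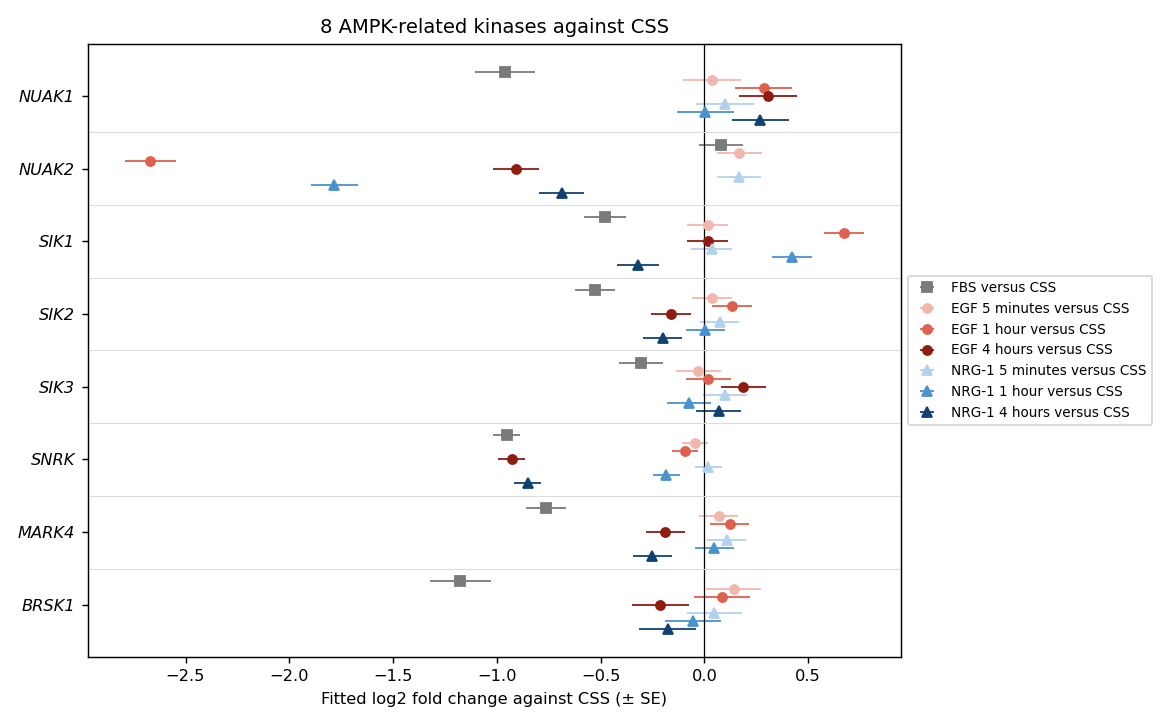
Fitted log2 fold change against CSS (x axis, ± SE) for each of 8 kinases (y axis) in 7 comparisons, squares for FBS, circles for EGF, and triangles for NRG-1, darker with time. *NUAK2* alone lies beyond -1.5, at -2.67 and -1.78 for 1 hour of EGF and NRG-1, whereas in FBS it lies at 0.08 and the other 7 kinases between -1.18 and -0.31.

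Full serum was the contrast in which most of the kinases differed. Its CSS libraries also served the ligand comparisons taken as used. Against CSS, 7 of 8 fell in FBS (26.8% of all genes tested did) and 0 rose (26.0%), and the median log2 difference was -0.644 over the 8 and -0.00821 over all genes tested. The exception was *NUAK2*, with 10.2, 9.49, 8.84, and 6.32 CPM in FBS and a log2 difference of 0.08 (SE 0.11, edgeR adjusted *P* = 0.557). All 7 that fell were lower in FBS in 4 of 4 same-numbered pairs.

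*BRSK1* fell from 1.36 ± 0.487 to 0.586 ± 0.0542 CPM (log2 difference -1.18, SE 0.15, edgeR adjusted *P* = 1.43e-07). *NUAK1* fell from 8.33 ± 1.40 to 4.26 ± 0.461 CPM (-0.96, SE 0.14, adjusted *P* = 2.4e-06). *SNRK* fell from 59.0 ± 4.30 to 30.6 ± 5.36 CPM (-0.95, SE 0.06, adjusted *P* = 6.24e-13), to 36.9, 32.7, 28.4, and 24.6 CPM in the single libraries. None of the FBS libraries of these 3 genes reached the CSS range.

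*MARK4* fell from 17.2 ± 0.556 to 10.1 ± 1.42 CPM (-0.76, SE 0.10, edgeR adjusted *P* = 1.49e-07), without overlap. Among the SIKs, *SIK1* was at 12.5, 10.7, 12.2, and 10.3 CPM in FBS, below every CSS library (-0.48, SE 0.10, adjusted *P* = 0.000193). *SIK2* fell to 33.3 ± 7.87 CPM (-0.53, SE 0.10, adjusted *P* = 3.62e-05) and *SIK3* to 9.87 ± 2.00 CPM (-0.31, SE 0.11, adjusted *P* = 0.0183), and both overlapped with CSS.

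Within batches the FBS differences of the 7 kinases kept their sign. They ran from -1.52 (*BRSK1*) to -0.27 (*SIK3*) in batch 1 and from -1.07 (*NUAK1*) to -0.34 (*SIK3*) in batch 2. *BRSK1* was -0.76 in batch 2, a smaller fall there than those of *NUAK1*, *SNRK* (-1.06), and *MARK4* (-0.81), and in that batch alone *SIK1* (adjusted *P* = 0.0907) and *SIK3* (0.259) did not pass. *SIK3* also did not pass without FBS batch 1 replicate 2 (adjusted *P* = 0.0568) or FBS batch 2 replicate 2 (0.0924), or without the batch term (0.0962). Across the alternatives its adjusted *P* ran from 0.000284 to 0.259.

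EGF and NRG-1 were then set side by side at the same dose and time. The 1-hour and 4-hour libraries were taken as used in the choice of genes, so these differences are a description with no test. At 1 hour *NUAK2* was lower with EGF (1.29 ± 0.0727 CPM) than with NRG-1 (2.38 ± 0.260 CPM), in 4 of 4 pairs and without overlap. The fitted log2 difference was -0.89 (SE 0.13), with -0.95 in batch 1 alone and -0.81 in batch 2 alone. On TPM scales it was smaller, at -0.70 on log2(TPM + 0.1) and -0.38 on log2(TPM + 1).

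*SIK1* was higher with EGF at 1 hour by 0.25 (SE 0.10) and *NUAK1* by 0.28 (SE 0.14), each in 4 of 4 pairs. By the call rule, of which nothing is read here, 1 of 8 kinases was called lower with EGF at 1 hour (*NUAK2*, 0.118% of all genes tested were) and 0 higher (0.941%). With a replicate block the number called was 3, with *SIK1* and *NUAK1* added as higher, and in batch 2 alone and in limma on log2 TPM it was 0.

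At 4 hours *SIK1* had 16.2 ± 1.31 CPM with EGF and 12.8 ± 1.63 CPM with NRG-1, higher with EGF in 4 of 4 pairs (log2 difference 0.34, SE 0.10). *NUAK2* had a log2 difference of -0.22 (SE 0.11), lower with EGF in 4 of 4 pairs and with overlap. By the edgeR call rule, of which again nothing is read, 0 of 8 were called at 4 hours (1.25% of all genes were higher with EGF and 0.412% lower). *SIK1* was called with a replicate block, in DESeq2, and without the batch 2 replicate 2 libraries. At 5 minutes 0 of 8 differed by the edgeR test, 0 of 8 had an unadjusted *P* below 0.05, DESeq2 called 0, and 0% of all genes were called in either direction by edgeR (184 had an unadjusted *P* below 0.05).

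Genes around these kinases were followed in 6 lists of 48 genes, of which 47 passed the count filter (*PRKAG3*, an AMPK subunit, did not). At 1 hour 7 of 47 (14.9%) rose and 0 fell with each ligand, where 6.00% of all genes tested rose and 3.51% fell with EGF and 4.45% and 2.28% with NRG-1. At 4 hours of EGF 12 (25.5%) rose and 14 (29.8%) fell, near the 24.6% in each direction over all genes. At 4 hours of NRG-1 9 (19.1%) rose and 13 (27.7%) fell, beside 21.6% and 21.0%. In FBS 8 (17%) rose and 19 (40.4%) fell against CSS, beside 26.0% and 26.8%, and at 5 minutes 0 of 47 were called with either ligand. The median log2 difference of the 47 was 0.0241 and -0.0739 at 1 and 4 hours of EGF (all genes tested: -0.0133 and -0.0217), -0.0066 and -0.0873 with NRG-1 (-0.00446 and -0.0102), and -0.205 in FBS (-0.00821). The counts of single lists that follow are of 4 to 10 genes and are to be read against the same shares over all genes. The lists were chosen with earlier results of these data known. Their calls and adjusted *P* values are therefore a description and no independent test.

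Of 9 other AMPK-related kinases, 0 were called at 1 hour with either ligand, and at 4 hours 3 rose and 0 fell with each (24.6% of all genes rose with EGF and 21.6% with NRG-1). *PRKAA1*, a catalytic subunit of AMPK itself, rose from 297 CPM in CSS to 761 CPM with EGF (log2 difference 1.37, SE 0.11, edgeR adjusted *P* = 3e-11) and to 748 CPM with NRG-1 (1.34, SE 0.11, 7.52e-11). The other 2, named after their values were seen, were *PRKAA2*, the second catalytic subunit (0.41 with EGF and 0.51 with NRG-1), and *BRSK2*, the paralog of *BRSK1* (1.35 and 0.97). In FBS 1 rose and 4 fell. *MELK*, a kinase of dividing cells, was the one that rose, from 37.3 to 116 CPM (1.63, SE 0.07, adjusted *P* = 6.29e-17).

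Among 7 genes of the LKB1 complex and other upstream kinases, 0 were called at 1 hour, and 1 rose and 4 fell at 4 hours with each ligand (24.6% of all genes fell with EGF and 21.0% with NRG-1). *CAB39L*, which encodes a form of the LKB1 scaffold MO25, fell from 136 CPM in CSS to 49.5 CPM with EGF (-1.46, SE 0.08, edgeR adjusted *P* = 1.8e-15) and to 61.4 CPM with NRG-1 (-1.15, SE 0.08, 4.41e-13). In FBS 2 rose and 2 fell, and *CAMKK2*, a calcium-dependent activator of AMPK, rose from 83.4 to 124 CPM (0.57, SE 0.07, adjusted *P* = 4.55e-08). Of 4 AMPK regulatory subunits tested, 0 were called at 1 hour, 1 rose and 1 fell at 4 hours of EGF, 1 rose at 4 hours of NRG-1, and 1 fell in FBS. These changes were small, with *PRKAB2* at -0.31 with EGF (adjusted *P* = 0.000353) and *PRKAB1* at 0.19 with both EGF (0.00573) and NRG-1 (0.00655) and -0.31 in FBS (3.82e-05).

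**Figure D4:**
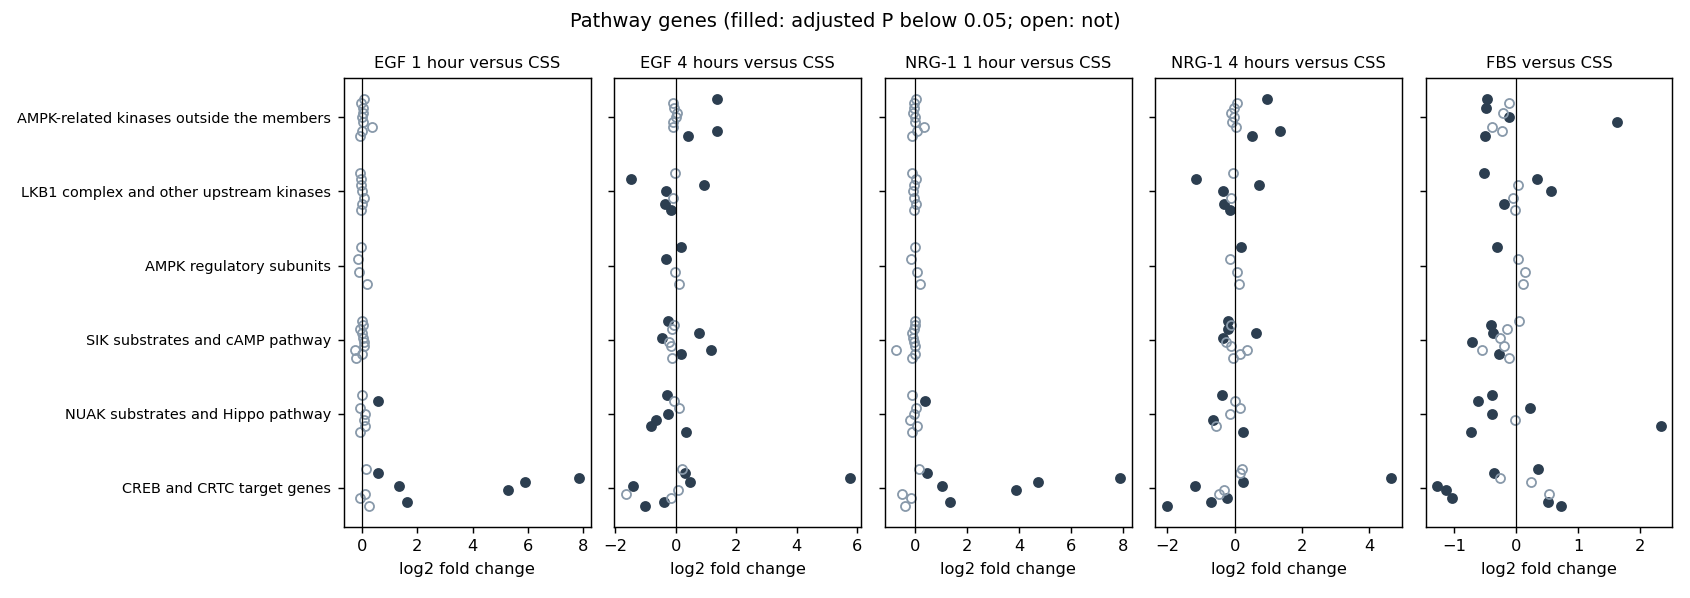
Fitted log2 fold change against CSS (x axis) of 47 genes in 6 lists (y axis) in 5 comparisons, 1 point per gene, filled where the edgeR adjusted *P* was below 0.05. At 1 hour the 7 filled points of each ligand lie in the Hippo list (1) and the CREB target list (6), whereas at 4 hours every list has filled points.

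Of 10 SIK substrates and cAMP pathway genes, 0 were called at 1 hour. At 4 hours 3 rose and 2 fell with EGF (24.6% of all genes in each direction), and 1 rose and 3 fell with NRG-1 (21.6% and 21.0%). The CRTC coactivator gene *CRTC3* rose from 25.7 CPM in CSS to 40.0 CPM with NRG-1 (0.63, SE 0.10, edgeR adjusted *P* = 3.81e-06) and to 44.5 CPM with EGF (0.78, SE 0.10, 7.39e-08). The class IIa deacetylase gene *HDAC9* was low throughout and rose from 0.406 to 0.905 CPM with EGF (1.16, SE 0.22, adjusted *P* = 4.96e-05), with 0.518 CPM under NRG-1 (0.35, SE 0.23, adjusted *P* = 0.227). In FBS 0 rose and 4 fell, with *HDAC5* at -0.72 (SE 0.10, adjusted *P* = 1.12e-06).

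Of 7 NUAK substrates and Hippo pathway genes, 1 rose at 1 hour with each ligand. *LATS2*, a Hippo kinase, rose from 11.7 CPM in CSS to 17.4 CPM with EGF (0.58, SE 0.08, edgeR adjusted *P* = 5.97e-06) and to 15.3 CPM with NRG-1 (0.40, SE 0.08, 0.00159). At 4 hours 1 rose and 4 fell with EGF, and 1 rose and 2 fell with NRG-1. *PPP1R12B*, a relative of the NUAK substrate MYPT1, fell from 26.5 CPM in CSS to 16.9 CPM under EGF (-0.64, SE 0.13, adjusted *P* = 9.86e-05) and to 17.0 CPM under NRG-1 (-0.64, SE 0.13, 0.000121). *WWTR1*, which encodes the YAP relative TAZ, was at 0.563 CPM in CSS, fell to 0.322 with EGF (-0.81, SE 0.23, adjusted *P* = 0.00459), was at 0.384 with NRG-1 (-0.55, SE 0.23, adjusted *P* = 0.0546), and was at 2.86 CPM in FBS (2.34, SE 0.19, adjusted *P* = 2.69e-11). In FBS 2 of the 7 rose and 4 fell.

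Of 10 target genes of CREB and CRTC, 6 rose and 0 fell at 1 hour with each ligand. Over all genes tested 6.00% rose with EGF and 4.45% with NRG-1. *CREM*, *PDE4D*, *PPARGC1A*, and *PDE4B*, list genes named after their values were seen, lay near their CSS level at 1 hour of EGF. Their means were 17.3, 4.64, 0.315, and 0.0951 CPM, beside 15.8, 4.83, 0.262, and 0.0874 CPM in CSS. Whether CREB or CRTC had a part in the rise of the others was not tested. *FOS*, an immediate early gene that other pathways also induce, rose from 0.619 CPM in CSS to 140 CPM with EGF (7.85, SE 0.36, edgeR adjusted *P* = 2.24e-16) and to 145 CPM with NRG-1 (7.88, SE 0.36, 4.24e-16). At 4 hours 3 rose and 3 fell with EGF and 2 rose and 4 fell with NRG-1, and *FOS* was still at 33.2 and 15.9 CPM. Between the ligands, *NR4A1* (log2 difference 1.20) and *NR4A3* (1.38), named after their values were seen, were the 2 of 47 list genes called at 1 hour, both higher with EGF. In FBS 3 of the 10 rose and 4 fell, and *NR4A2*, an orphan nuclear receptor gene, fell from 0.935 to 0.387 CPM (-1.28, SE 0.18, adjusted *P* = 1.09e-06).

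Across the 32 libraries with batch means removed, the log2 CPM of *NUAK2* correlated negatively with each of the other 7 kinases, from r = -0.689 with *SIK1* to -0.0378 with *SIK3*. All pairs among the other 7 were positive, from 0.174 (*SIK3* with *SNRK*) to 0.928 (*SIK2* with *MARK4*). These values describe libraries that share groups, depth, and scaling. Among 12018 genes the 5 most like *NUAK2* were *TXNIP* (0.958), *ZNF792* (0.946), *ZKSCAN4* (0.944), *SPRY1* (0.933), and *NFKBIA* (0.930). This list depended on the measure, as Spearman's rho kept only *ZNF792* of the 5 and group means only *TXNIP*. The 5 most like *SIK1* were *DUSP8* (0.973), *ELL* (0.959), *KDM6B* (0.956), *LUZP1* (0.954), and *MNT* (0.950).

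*TXNIP*, an arrestin-related inhibitor of glucose uptake, went from 464 ± 77.3 CPM in CSS to 71.2 ± 12.0 at 1 hour and 233 ± 14.3 at 4 hours of EGF, and to 139 ± 6.66 and 321 ± 27.0 with NRG-1. In FBS, where *NUAK2* held its CSS level, *TXNIP* was at 310 ± 61.5 CPM. *DUSP8*, a MAP kinase phosphatase gene, went from 59.7 ± 4.41 CPM in CSS to 105 ± 7.86 and 57.1 ± 5.36 at 1 and 4 hours of EGF, and to 86.7 ± 10.5 and 49.5 ± 5.78 with NRG-1.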

How the data were processed

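The authors trimmed reads with Trimmomatic 0.36 and estimated gene values with RSEM around STAR 2.7.0f on hg19, per the submitters' processing notes and the study's methods. They deposited an expected count per gene and library, not normalized, and a TPM value, which corrects for both gene length and depth. Replicates were not pooled. Expected counts were rounded (11.2% were not whole). Groups, batches, and replicates came from the labels.

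Genes reaching 5 counts in 3 or more libraries entered the quasi-likelihood test of edgeR 4.0.16 (R 4.3.3), with TMM scaling, group and batch terms, and all 32 libraries. *P* values were adjusted by Benjamini-Hochberg over all genes within each of 10 comparisons, and a gene was called at an adjusted *P* below 0.05. In the text, rose and fell mean called. The code was tested on simulated counts.

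The 8 kinases and all lists were chosen with earlier results of these data known. Named genes were the 8 kinases, in each list the called gene with the largest log2 difference in each ligand comparison at 1 and 4 hours and in FBS, and the 5 genes most like *NUAK2* and *SIK1* (average log2 CPM of at least 1). Alternatives were DESeq2 1.42.0, its size factors, other filters, no batch term, a replicate block, each batch or group pair alone, limma 3.58.1 on log2 TPM (pseudocount 1 or 0.1), libraries left out, and other measures of likeness. Same-numbered libraries share a batch by the labels. Their deviations from the group means correlated above 0.1 in 112 of 112 pairs of libraries (r from 0.133 to 0.571). Libraries of the same batch with the other replicate number did so in 79 of 112 pairs (-0.0514 to 0.373). With batch means also removed, same-numbered libraries did so in 54 of 112 pairs (-0.0639 to 0.427). Libraries were paired by their numbers, but a pairing beyond the shared batch was not seen in all pairs. Replicate libraries differed by more than sampling noise in all 48 pairs (chi-square per degree of freedom 6.5 to 262). Sequences came from RefSeq, and no coordinates of the expression files were used. Protein sequences were not used here. Some marker genes are not reported here.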

Additional observations from a re-analysis of the deposited data

Results flagged for a closer look

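In 4 of 64 sets of 4 libraries, 1 library stood apart from the other 3 by Dixon's test, where chance gives about 1 in 20 (3.2). All 4 were numbered batch 2 replicate 2. *NUAK2* was at 2.00 CPM in that NRG-1 1-hour library (others 2.47 to 2.57). *SIK1* was at 13.1 CPM in that EGF 5-minute library (others 16.9 to 17.3), and *SIK3* was at 9.25 CPM in the same library (others 12.7 to 13.0). *MARK4* was at 12.2 CPM in that NRG-1 4-hour library (others 15.0 to 15.4). Whether RNA quality had a part in this was not tested.

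*NUAK2* at 1 hour was picked out again for its log2 difference of -0.89 between EGF and NRG-1. These 1-hour values were taken as used in the choice of the kinases, so no *P* is given. The difference was -0.95 and -0.81 in batches 1 and 2 alone and -0.70 and -0.38 on log2(TPM + 0.1) and log2(TPM + 1), and the call was lost in batch 2 alone and on both TPM scales. *SIK1* with NRG-1 lay above all CSS libraries at 1 hour and below all of them at 4 hours (mean 12.8 CPM), and this difference between the 2 times was not tested.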

How the results depend on the processing

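With a replicate block, 3 of 8 kinases were called between EGF and NRG-1 at 1 hour (main analysis 1), 1 at 4 hours (main 0), and 17 calls were made over the ligand comparisons at 1 and 4 hours (main 10). The block ended no call of the 8 kinases. With batch 2 alone these were 0 at 1 hour and 5 calls over the ligand comparisons, and pathway genes called fell to 14 (EGF) and 10 (NRG-1) at 4 hours and 16 in FBS, with fewer libraries. With all batch 2 replicate 2 libraries set aside, an alternative chosen after seeing the data, 1 kinase was called between the ligands at 4 hours and 16 calls were made over the ligand comparisons. DESeq2 also called 1 at 4 hours. Limma on log2 TPM called 0 at 1 hour with either pseudocount and without a filter. A log2 fold change beyond 1 left 1 kinase in FBS, 0 between ligands at 1 hour, 2 calls over the ligand comparisons, and 7, 5, and 5 pathway genes at 4 hours of EGF, 4 hours of NRG-1, and in FBS. *NUAK2* at 1 hour against CSS was -1.65 with EGF and -1.27 with NRG-1 on log2(TPM + 1), with or without a filter, and -2.47 with EGF on log2(TPM + 0.1). Of the 5 genes most like *NUAK2*, 1 was kept by Spearman's rho and 1 by group means, and of those most like *SIK1* 3 by group means. No called value of the 8 kinases changed sign. Leaving out 1 library gave 6 to 7 kinases called in FBS, 9 to 11 calls over the ligand comparisons, and 25 to 27, 19 to 23, and 25 to 29 pathway genes called at 4 hours of EGF, 4 hours of NRG-1, and in FBS. *NUAK2* then ranged from -2.74 to -2.59 and *SIK1* from 0.62 to 0.70 at 1 hour of EGF, and *NUAK2* from -1.88 to -1.73 with NRG-1. The kinases with the fewest counts were *BRSK1*, with 35 in its lowest library (FBS), and *NUAK2*, with 86 in its lowest (1 hour of EGF). Whether depth limited their results was not tested.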
